A study of Mus musculus with 6 samples.

Results

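The mitochondrially encoded transcripts are the RNAs read from the small circular DNA that each mitochondrion carries, apart from the chromosomes of the nucleus. Every gene whose symbol starts with mt- in the deposited table was taken, which gave 37 of the 55376 genes listed: 13 mRNA genes, 2 rRNA genes and 22 tRNA genes. Which genes belong follows from the annotation alone, but the group was chosen with earlier results of these data known. Their RNA was counted in whole retinas of 3 WT mice and 3 Wfs1-KO mice (genotype Wfs1-/-), all of strain label C57x129 and at postnatal day 240, while the study's methods name the C57BL/6 J background. The Wfs1-KO mice carry a targeted deletion of exon 8 of Wfs1, which encodes the endoplasmic reticulum protein wolframin, and the deletion is not limited to a retinal cell type. The retinas came from different mice, and each library is 1 retina sample.

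Mitochondrial DNA is transcribed from both of its strands into long precursors. Most of the tRNA genes lie between the other genes, and excision of the tRNAs releases the mRNAs and rRNAs from the precursor. The 2 rRNAs build the mitochondrial ribosome, the 22 tRNAs serve it, and the 13 mRNAs encode core subunits of the respiratory chain and the ATP synthase. The remaining subunits of these complexes, and every protein that copies, transcribes or processes mitochondrial DNA and RNA, are encoded in the nucleus. In the mouse 1 mRNA, mt-Nd6, and 8 of the tRNAs are annotated on the minus strand, opposite to the other genes. Photoreceptors, the most numerous cells of the mouse retina, pack their inner segments with mitochondria. In bulk tissue, fewer cells of a type and less RNA per cell cannot be told apart.

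A stretch of nuclear chromosome 1 copies part of the mitochondrial genome, and the mitochondrial mRNA genes inside and outside that part had separate ranges of counts. The annotation (GENCODE M21 on GRCm38, the mm10 genome) lists 7 unprocessed pseudogenes on its minus strand, between chr1:24611535 and chr1:24616197, in the same order and spacing as chrM:6381-11042, with a shift of at most 1 base. The stretch runs from the end of mt-Co1 to the middle of mt-Nd4. The start of mt-Nd3 (chrM:9459-9498, plus strand) and of its copy Gm28438 (chr1:24613080-24613119, minus strand) are shown because, over 345 compared bases, they differ at 1 base only, T3C, counted from the first base of mt-Nd3. That base is in capitals. The start of mt-Co2 (chrM:7013-7072, plus strand) and of its copy Gm28661 (chr1:24615506-24615565, minus strand) are shown as a pair with no difference in 681 bases.
mt-Nd3: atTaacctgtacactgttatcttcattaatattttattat
Gm28438: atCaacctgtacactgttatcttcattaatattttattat
mt-Co2: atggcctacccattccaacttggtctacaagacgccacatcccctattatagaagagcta
Gm28661: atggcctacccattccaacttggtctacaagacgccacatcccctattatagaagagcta

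The 6 mRNA genes that lie wholly inside this stretch (mt-Co2, mt-Atp8, mt-Atp6, mt-Co3, mt-Nd3 and mt-Nd4l) had between 0 and 158 counts in any retina. The other 7 mRNA genes had between 8898 and 607954. No mRNA gene lay between these ranges. The 5 tRNA genes inside the stretch had at most 4 counts in any retina. Of the 50-base windows of a gene, the share that also occurs letter for letter in another annotated transcript was 100% for mt-Co2, 99.9% for mt-Co3, 99.5% for mt-Atp6, 98.8% for mt-Nd4l and 98.0% for mt-Nd3. It was 62.2% for mt-Nd4 and 51.1% for mt-Co1, which enter the stretch with 876 and 492 of their bases. Of the 492, 483 aligned to the copy Gm29216 with 1 mismatch, and the first 9 were placed by the spacing only. The share of mt-Co1 also includes matches outside this stretch, to Gm13340 on chromosome 2 and Gm11512 on chromosome 11. The share was 8.19% for mt-Nd2, 7.61% for mt-Nd5, 1.04% for mt-Rnr2 and 0% for mt-Nd1, mt-Nd6, mt-Cytb and mt-Rnr1. For mt-Atp8 the share was also 0%, and its place in the stretch falls in a gap of 233 bases between 2 annotated copies whose sequence was not read here. Sources used here do not state how reads that fit several places equally well were handled, and the part of such reads in the low counts was not tested.

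More reads were assigned to the nuclear copies than to the mitochondrial mRNAs inside the stretch, in every retina. These sets do not match gene for gene. The copies include Gm29216 and Gm28439, from parts of mt-Co1 and mt-Nd4, and mt-Atp8 had no exact match. The 7 copies together held 2318, 2168 and 625 counts in WT replicates 1, 2 and 3, and 2907, 3373 and 1544 counts in Wfs1-KO replicates 1, 2 and 3. The 6 mitochondrial mRNAs inside the stretch together held 236, 194 and 91 counts in WT, and 398, 401 and 216 counts in Wfs1-KO. Most of the counts of the copies lay on Gm28438, which had 1802, 1690 and 453 counts in WT and 2062, 2586 and 1139 counts in Wfs1-KO. The mitochondrial original mt-Nd3, a subunit of complex I, had 6, 4 and 4 counts in WT and 13, 11 and 4 counts in Wfs1-KO. Levels of the 6 mRNAs inside the stretch and of the 7 copies are given as uncertain. Levels are compared for the other 7 mRNAs and the rRNAs, a grouping made after the counts were seen.

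**Figure D1:**
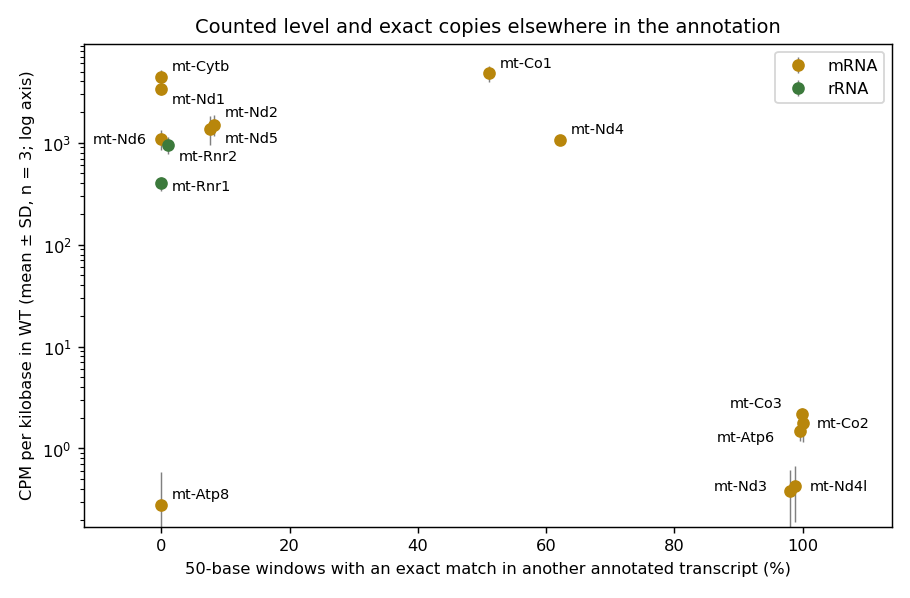
Share of 50-base windows with an exact match in another annotated transcript (x axis, percent) against the level in WT (y axis, CPM per kilobase, log axis, mean ± SD of 3 retinas) for the 13 mRNA genes (sand) and 2 rRNA genes (green). The genes at 98.0% or more lie below 3 CPM per kilobase, mt-Nd4 and mt-Co1 lie at 62.2% and 51.1% with high levels, and mt-Atp8 is low with no exact match.

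Total counts per library ranged from 17916885 to 101334381, so that 3 counts, taken as the limit of detection, correspond to 0.0291 to 0.170 CPM, the counts of a gene per library size after TMM scaling. The targeted gene Wfs1 had 65.4 ± 4.30 CPM in WT and 7.34 ± 5.65 CPM in Wfs1-KO retinas (SD, n = 3 each), lower in every mutant retina. Its log2 fold change was -3.15 (standard error 0.77, unadjusted p = 0.00428, adjusted p = 0.979, quasi-likelihood test of edgeR, Benjamini-Hochberg adjusted). Without Wfs1-KO replicate 2 the fold change was -2.64 (standard error 0.16, adjusted p = 2.84e-05 in the same test). On all 6 retinas the test thus did not call the targeted gene, so a gene not called there can still differ. Wfs1-KO replicate 2 stood apart, with a mean correlation of 0.918 to the other libraries across genes, against 0.962 to 0.971 for the others. Its summed markers of rods were 52448 CPM, against 66042 to 74228 CPM in the other 5 retinas. Summed markers were 482 CPM for blood (12.4 to 41.3 in the others), 412 CPM for pigment epithelium (50.8 to 166), 339 CPM for microglia and macrophages (46.7 to 71.7), 54.1 CPM for cornea and conjunctiva (0.505 to 1.41), 7718 CPM for Müller glia (5291 to 6449) and 7.84 CPM for lens (1.70 to 3.56). Its cone, bipolar, amacrine and horizontal, ganglion cell and muscle markers were at 0.828 to 1.81 times the median of the other 5. Each of these sums also lay outside the range of the other 5, amacrine and horizontal below it and the rest above. Of the 11 lens markers, Crygb and Crygc were at 0 in all retinas. WT replicate 3 was the only library with more than 2 counts of Y-linked Ddx3y (1137 counts) and had 4 counts of Xist, against at least 10583 in the others. Results are given with and without Wfs1-KO replicate 2, and the part of these differences in them was not tested.

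The 13 mRNAs took 1.76%, 2.36% and 2.40% of all counts in WT replicates 1, 2 and 3, and 1.62%, 1.45% and 1.96% in Wfs1-KO replicates 1, 2 and 3. The mean was 2.18 ± 0.36% in WT and 1.68 ± 0.26% in Wfs1-KO (SD, n = 3 each). The genotypes overlapped, since Wfs1-KO replicate 3 lay above WT replicate 1. Without Wfs1-KO replicate 2 the mutant mean was 1.79%. Exact 95% Clopper-Pearson intervals were at most ± 0.00709 percentage points wide for these shares and cover counting error only, and the spread between retinas was larger.

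The 2 rRNAs took 0.156%, 0.218% and 0.192% of counts in WT, and 0.175%, 0.382% and 0.210% in Wfs1-KO. The value of Wfs1-KO replicate 2 was the highest, and the other mutant retinas lay within the WT range. The 22 tRNAs took 0.00185%, 0.00398% and 0.00234% in WT, and 0.00174%, 0.00121% and 0.00195% in Wfs1-KO. These ranges overlapped at replicate 3 of the mutant. The library kit named in the labels selects RNAs with a poly(A) tail, so the classes are compared as levels in the library and not in the cell.

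Relative to the mRNAs, the sum of the 2 rRNAs, most of which is mt-Rnr2, was higher in the mutant retinas. There were 8.85, 9.21 and 8.02 rRNA counts per 100 mRNA counts in WT replicates 1, 2 and 3, and 10.8, 26.3 and 10.7 in Wfs1-KO replicates 1, 2 and 3. Every mutant retina lay above every WT retina in this ratio, with the mean at 8.70 in WT and 15.9 in Wfs1-KO, or 10.8 without Wfs1-KO replicate 2. The 6 mRNAs inside the copied stretch added 91 to 401 counts per retina, so the denominator is in effect the other 7 mRNAs. This ratio was computed over the members themselves and has no test.

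**Figure D2:**
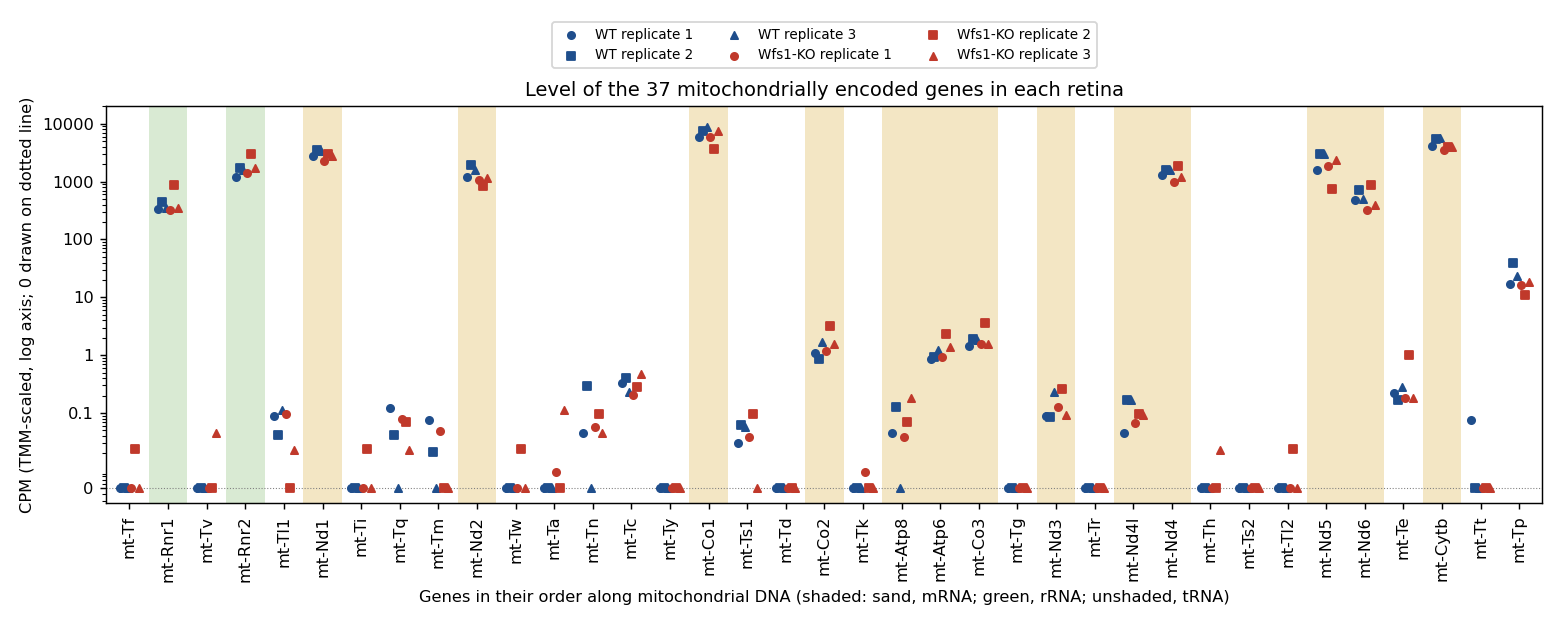
Level of each of the 37 genes (y axis, CPM on a log axis, values of 0 on the dotted line) in every retina, with genes in their order along mitochondrial DNA (x axis). WT retinas are blue and Wfs1-KO retinas red, sand bands mark mRNAs, green bands mark rRNAs, and unshaded columns are tRNAs. The 7 mRNAs and 2 rRNAs with high counts lie between 323 and 8666 CPM in every retina, mt-Tp lies between 10.8 and 38.8 CPM, and the mRNAs from mt-Co2 to mt-Nd4l lie below 4 CPM.

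Among the 7 mRNAs with high counts, mt-Co1, the catalytic core of complex IV, was the most abundant per kilobase of exon length in WT retinas. It had 4802 ± 872 CPM per kilobase (SD, n = 3). It was followed by mt-Cytb, the core of complex III, at 4438 ± 752 CPM per kilobase and by mt-Nd1 at 3343 ± 387 CPM per kilobase. The range of mt-Cytb overlapped that of mt-Co1 and that of mt-Nd1, although their order was the same in 3 of 3 WT retinas. Below a gap with no overlap came mt-Nd2 at 1509 ± 344, mt-Nd5 at 1377 ± 434, mt-Nd6 at 1097 ± 241, mt-Nd4 at 1074 ± 120 and mt-Rnr2 at 956 ± 173 CPM per kilobase, each overlapping the next. The small rRNA mt-Rnr1 lay separate at 399 ± 62.3 CPM per kilobase. An alternative chosen after seeing the data took only the bases outside every exactly copied window as the length, 388 bases for mt-Co1. The counts stayed those of the whole gene, so they do not match this length, and the values can overstate the level. On this basis mt-Co1 reached 19123 CPM per kilobase, separate from mt-Cytb. Likewise mt-Nd4 reached 2947 CPM per kilobase, which moved it up to the place after mt-Nd1. The place of mt-Nd4 in the order thus depended on the length used.

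Between genotypes, none of the mitochondrially encoded genes passed the threshold, and on all 6 retinas neither did the targeted gene Wfs1. Of the 37 genes, 15 passed the filter on low counts and were tested: 10 mRNAs, both rRNAs and the tRNAs mt-Tc, mt-Te and mt-Tp. With an adjusted p under 0.05 (quasi-likelihood test of edgeR, Benjamini-Hochberg adjusted over all 18547 tested genes), 0 of the 15 were called, against 0.0108% of all tested genes. Without Wfs1-KO replicate 2, again 0 of the 15 were called, against 0.125% of 19178 genes. At an unadjusted p under 0.05, 1 member was lower in the mutant retinas on all 6 libraries, against 0.566% of all tested genes, and 0 were higher. Without Wfs1-KO replicate 2, 5 members were lower at that level, against 2.39% of all tested genes, and 0 were higher. These genes are read from the same DNA and cut from the same precursors, so they are not independent observations.

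The 7 mRNAs with high counts all had a fitted value below 0, both on all 6 retinas and without Wfs1-KO replicate 2. Their median log2 fold change, mutant over WT, was -0.39 on all 6 retinas and -0.44 without Wfs1-KO replicate 2, beside medians of 0.02 and -0.0004 over all tested genes. With the other tested mRNAs included, mt-Co2, mt-Atp6 and mt-Co3, the median over 10 mRNAs was -0.19 and -0.29. Leaving out Wfs1-KO replicate 1 moved that median to -0.054. All 7 high-count mRNAs were also below 0 without WT replicate 1 or 3, where the values without WT replicate 3 ran from -0.63 for mt-Nd2 to -0.11 for mt-Nd4. In the other 3 fits that left out 1 retina this did not hold. Without Wfs1-KO replicate 1 the value was 0.042 for mt-Nd4 and 0.17 for mt-Nd6. For mt-Nd6 it was also above 0 without WT replicate 2 (0.10) and without Wfs1-KO replicate 3 (0.087). Summed rod markers were 66464 to 74228 CPM in WT and 52448 to 66205 CPM in Wfs1-KO, lower in every mutant retina by a narrow margin. Summed bipolar markers were higher in every mutant retina (1782 to 1858 CPM in WT, 1959 to 2230 CPM in Wfs1-KO). So were lens markers (1.70 to 2.66 CPM in WT, 2.82 to 7.84 CPM in Wfs1-KO), and the other marker sums overlapped. The part of these marker differences in the fitted values was not tested.

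Among the 7 mRNAs for subunits of complex I, the NADH dehydrogenase, mt-Nd2 (chrM:3914-4951, plus strand) had the smallest p. Its level was 1196, 1909 and 1595 CPM in WT replicates 1, 2 and 3, and 1053, 849 and 1147 CPM in Wfs1-KO replicates 1, 2 and 3. Every mutant retina was below every WT retina. The log2 fold change of mt-Nd2 was -0.62 (standard error, SE, 0.23, unadjusted p = 0.0271, adjusted p = 0.979, quasi-likelihood test of edgeR, Benjamini-Hochberg adjusted), while leaving out Wfs1-KO replicate 2 gave -0.51 (SE 0.17, adjusted p = 0.735 in the same test). The genotypes were separate in this way, with the mutant below, for 2 of the 15 tested members, mt-Nd2 and mt-Cytb, against 3.94% of all tested genes. With the mutant above, they were separate for 0 members, against 5.01% of all tested genes.

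The level of mt-Nd1 (chrM:2751-3707, plus strand), the subunit next to the quinone site of complex I, was 2775, 3462 and 3361 CPM in WT and 2313, 2955 and 2817 CPM in Wfs1-KO. The 2 groups overlapped, with WT replicate 1 below both Wfs1-KO replicates 2 and 3. The fit gave mt-Nd1 a log2 fold change of -0.25 (SE 0.18), or -0.32 (SE 0.13) with Wfs1-KO replicate 2 left out. For mt-Nd4 (chrM:10167-11544, plus strand), a proton-pumping subunit, the level was 1289, 1587 and 1562 CPM in WT and 993, 1859 and 1194 CPM in Wfs1-KO. Wfs1-KO replicate 2 was the highest of all retinas, while the other mutant retinas lay below every WT retina. Its log2 fold change moved from -0.13 (SE 0.26) to -0.44 (SE 0.14, adjusted p = 0.661, edgeR, Benjamini-Hochberg adjusted) when that retina was left out.

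The level of mt-Nd5 (chrM:11742-13565, plus strand), another proton-pumping subunit and the longest mRNA here, was 1599, 2967 and 2970 CPM in WT and 1861, 736 and 2368 CPM in Wfs1-KO. WT replicate 1 was below Wfs1-KO replicates 1 and 3, and Wfs1-KO replicate 2 was by far the lowest. For mt-Nd5 the log2 fold change was -0.60 (SE 0.44), or -0.25 (SE 0.23) without that retina. The minus-strand mt-Nd6 (chrM:13552-14070), whose end overlaps that of mt-Nd5 by 14 bases on the opposite strand, had 490, 714 and 505 CPM in WT and 323, 890 and 395 CPM in Wfs1-KO. As for mt-Nd4, Wfs1-KO replicate 2 was the highest retina and the other mutant retinas lay below every WT retina. The log2 fold change of mt-Nd6 was -0.09 (SE 0.39), and -0.67 (SE 0.18, unadjusted p = 0.00354, adjusted p = 0.474, edgeR, Benjamini-Hochberg adjusted) without Wfs1-KO replicate 2, the smallest p of the members in that fit. With DESeq2 and without that retina, its adjusted p was 0.0698. Replicates 1 and 3 of the mutant were below every WT retina for 4 of the 15 members (mt-Nd2, mt-Nd4, mt-Nd6 and mt-Cytb), against 11.0% of all genes tested in that fit. The strand setting of the counting is not stated, so reads over the overlap of mt-Nd5 and mt-Nd6 cannot be assigned to a strand.

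In complex III, mt-Cytb (chrM:14145-15288, plus strand), which encodes cytochrome b, had 4102, 5399 and 5730 CPM in WT and 3477, 3954 and 4011 CPM in Wfs1-KO. No mutant retina reached the lowest WT retina, though WT replicate 1 and Wfs1-KO replicate 3 were close. Its log2 fold change was -0.41 (SE 0.19, unadjusted p = 0.0594, adjusted p = 0.979, edgeR, Benjamini-Hochberg adjusted), while leaving out Wfs1-KO replicate 2 gave -0.44 (SE 0.15, adjusted p = 0.69 in the same test). In complex IV, mt-Co1 (chrM:5328-6872, plus strand) had 5991, 7602 and 8666 CPM in WT and 5900.0, 3714 and 7401 CPM in Wfs1-KO. Its groups overlapped at Wfs1-KO replicate 3. The fitted value was -0.39 (SE 0.28) with all 6 retinas, or -0.16 (SE 0.15) when mutant replicate 2 was left out.

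Of the mRNAs inside the copied stretch, 3 passed the filter. The complex IV subunits mt-Co2 and mt-Co3 had log2 fold changes of 0.71 (SE 0.48) and 0.37 (SE 0.43), which became 0.21 and -0.15 without Wfs1-KO replicate 2. The ATP synthase subunit mt-Atp6 had 0.62 (SE 0.44), and 0.22 without that retina. All 3 lay between 0.858 and 3.58 CPM, with Wfs1-KO replicate 2 the highest retina for each. The remaining mRNAs, mt-Atp8, mt-Nd3 and mt-Nd4l, had at most 13 counts in any retina and were not tested.

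The rRNAs showed their highest value in Wfs1-KO replicate 2. The large rRNA mt-Rnr2 (chrM:1094-2675, plus strand) had 1204, 1729 and 1602 CPM in WT and 1400.1, 3051 and 1720 CPM in Wfs1-KO. The small rRNA mt-Rnr1 (chrM:70-1024, plus strand) had 340.0, 449 and 354 CPM in WT and 325, 882 and 349 CPM in Wfs1-KO. For both, the mutant retinas 1 and 3 lay within or next to the WT range. The log2 fold change was 0.44 (SE 0.31) for mt-Rnr2 and 0.44 (SE 0.40) for mt-Rnr1. Without Wfs1-KO replicate 2 it was 0.04 (SE 0.16) and -0.18 (SE 0.15).

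**Figure D3:**
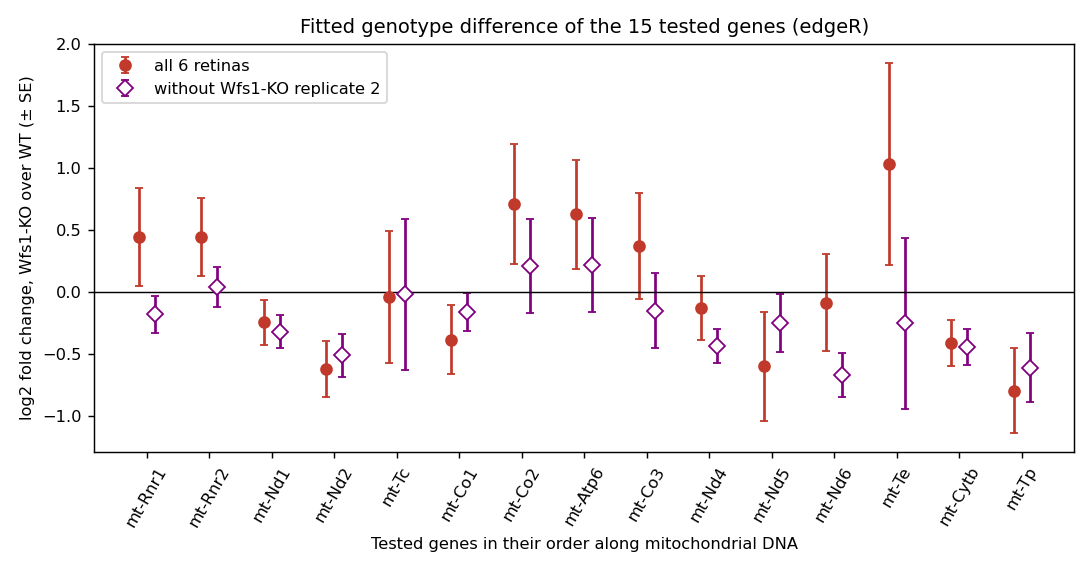
Fitted log2 fold change (y axis, Wfs1-KO over WT, bars are standard errors) of the 15 tested genes in their order along mitochondrial DNA (x axis), with all 6 retinas (filled circles) and without Wfs1-KO replicate 2 (open diamonds). The 7 high-count mRNAs, such as mt-Nd2 (-0.62 and -0.51) and mt-Cytb (-0.41 and -0.44), lie below 0 in both fits, while the rRNAs drop from 0.44 to 0.04 and -0.18.

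Wfs1-KO replicate 2 differed from the others gene by gene. Relative to the mean of the other 5 retinas, it had 2.43 times the level of mt-Rnr1, 1.99 times that of mt-Rnr2, 1.83 times that of mt-Nd6 and 1.40 times that of mt-Nd4. It had 1.00 times the level of mt-Nd1 and 0.870 times that of mt-Cytb. It had 0.615 times the level of mt-Nd2, 0.522 times that of mt-Co1 and 0.313 times that of mt-Nd5. This retina thus ran from the highest to the lowest of all retinas depending on the gene, so no single scaling of its library aligns it with the others.

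The composition of the 9 high-count genes showed the same pattern. The share of mt-Nd5 was 8.42%, 11.5% and 11.3% in WT and 10.5%, 3.90% and 11.1% in Wfs1-KO. The share of mt-Rnr2 was 6.34%, 6.70% and 6.08% in WT and 7.94%, 16.1% and 8.03% in Wfs1-KO. The share of mt-Co1 was 31.6%, 29.4% and 32.9% in WT and 33.4%, 19.7% and 34.6% in Wfs1-KO. Wfs1-KO replicate 2 lay outside the range of the others in each of these shares, and mt-Rnr2 was higher in every mutant retina than in every WT retina. The share of mt-Nd2 was lower in every mutant retina, at 6.30%, 7.39% and 6.05% in WT and 5.97%, 4.49% and 5.36% in Wfs1-KO. Such shares were computed over the members themselves and have no test. The share of mt-Rnr1 overlapped, at 1.79%, 1.74% and 1.34% in WT and 1.84%, 4.67% and 1.63% in Wfs1-KO, with mutant replicate 3 below 2 of the WT retinas.

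The counts of mt-Nd5 per 100 counts of its overlapping neighbour mt-Nd6 were 326, 416 and 588 in WT and 576, 82.7 and 600 in Wfs1-KO. The values of Wfs1-KO replicates 1 and 3 lay at or near that of WT replicate 3, and Wfs1-KO replicate 2 lay far below all others. Per 100 counts of the 6 plus-strand mRNAs with high counts, mt-Nd6 had 2.89, 3.11 and 2.11 counts in WT and 2.07, 6.32 and 2.08 counts in Wfs1-KO. Without Wfs1-KO replicate 2, both mutant values lay just under the lowest WT value of 2.11.

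**Figure D4:**
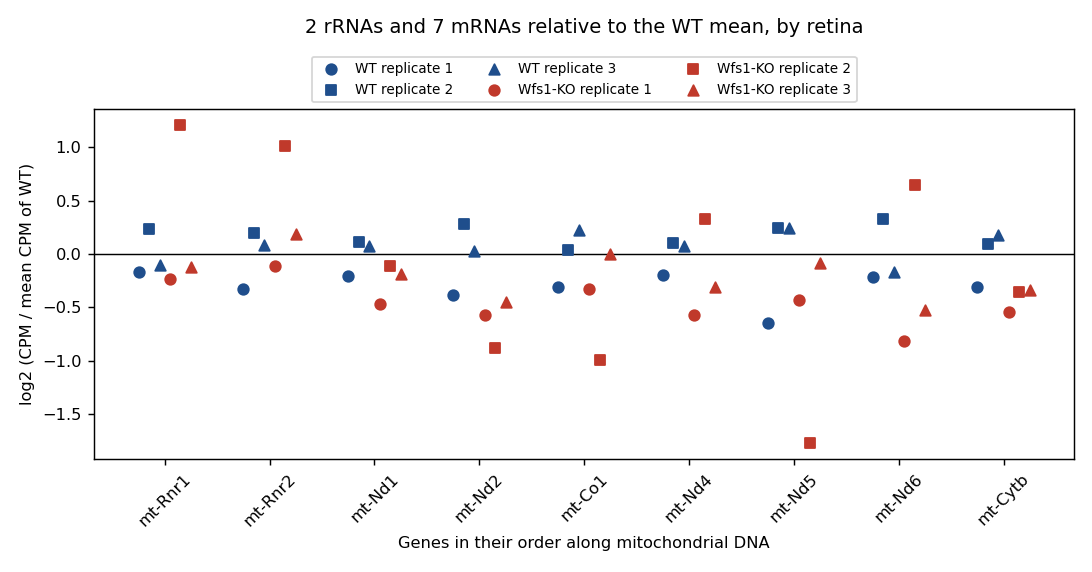
Level of 2 rRNAs and 7 mRNAs in each retina as log2 of its CPM over the mean CPM of WT (y axis), genes in their order along mitochondrial DNA (x axis). WT retinas are blue and Wfs1-KO retinas red. Wfs1-KO replicate 2 (red squares) is the highest retina for mt-Rnr1, mt-Rnr2, mt-Nd4 and mt-Nd6 and the lowest for mt-Nd2, mt-Co1 and mt-Nd5, and the other mutant retinas lie at or below the WT mean except replicate 3 for mt-Rnr2.

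The tRNAs were counted at low levels, and almost all of their counts lay on mt-Tp, the tRNA of proline. It lies on the minus strand at the end of the coding part of the genome, with only the control region after it. Of the 22 tRNA genes, 5 (mt-Ty, mt-Td, mt-Tg, mt-Tr and mt-Ts2) had 0 counts in every retina, which allows levels up to the limits of 0.0291 to 0.170 CPM, and 12 had at most 3 counts in any retina. The gene mt-Tp held between 86.7% and 97.4% of all tRNA counts. The largest count of any other tRNA was 43, for mt-Te in Wfs1-KO replicate 2. The annotated genes are 59 to 75 bases long. The gene with most counts, mt-Tp (chrM:15356-15422, minus strand), is printed beside mt-Td (chrM:6942-7011, plus strand), which lies in the copied stretch and had no counts, because they stand at the ends of the range of tRNA counts. No base is in capitals, since no part is singled out.
mt-Tp: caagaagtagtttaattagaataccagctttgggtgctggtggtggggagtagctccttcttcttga
mt-Td: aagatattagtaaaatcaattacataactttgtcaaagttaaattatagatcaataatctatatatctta

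The level of mt-Tp was 17.3, 38.8 and 23.1 CPM in WT and 16.4, 10.8 and 18.3 CPM in Wfs1-KO. The groups overlapped, since Wfs1-KO replicate 3 lay above WT replicate 1. Its log2 fold change was -0.80 (SE 0.34, unadjusted p = 0.0515, adjusted p = 0.979, edgeR, Benjamini-Hochberg adjusted), and -0.61 (SE 0.28) without Wfs1-KO replicate 2. WT replicate 2 was the highest retina, and Wfs1-KO replicate 2 the lowest.

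The tRNA of glutamate, mt-Te, lies next to mt-Nd6 and had 0.226, 0.168 and 0.284 CPM in WT and 0.184, 1.02 and 0.182 CPM in Wfs1-KO. Its log2 fold change of 1.03 (SE 0.82) rested on Wfs1-KO replicate 2 and was -0.26 without it. The tRNA of cysteine, mt-Tc, had 0.331, 0.399 and 0.227 CPM in WT and 0.204, 0.284 and 0.477 CPM in Wfs1-KO, with a log2 fold change of -0.04 (SE 0.53). At 4 to 43 counts per library, these tRNAs could be compared with little precision.

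The nuclear genes that transcribe, copy and process mitochondrial DNA and RNA were measured with the same fits, and none of the listed genes passed the adjusted threshold in either fit. For the 10 genes of mitochondrial transcription the median log2 fold change was 0.04, and -0.03 without Wfs1-KO replicate 2. The RNA polymerase Polrmt had 37.3 ± 8.96 CPM in WT and 30.5 ± 5.33 CPM in Wfs1-KO (SD, n = 3 each), with a log2 fold change of -0.29 (SE 0.24). Tfam, which packages mitochondrial DNA and starts its transcription, had 0.01 (SE 0.20), Tfb2m had -0.14 (SE 0.23) and Tefm, the elongation factor, had 0.04 (SE 0.23). The smallest p of this list belonged to Mterf1b (0.70, SE 0.43). Leaving out Wfs1-KO replicate 2 gave -0.16 for Polrmt, -0.16 for Tfam, 0.01 for Tfb2m, -0.12 for Tefm and 0.33 for Mterf1b. These regulators, like the mitochondrial mRNAs, had no difference that passed the test.

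For the 12 genes of mitochondrial DNA replication the median was -0.05, and -0.10 without Wfs1-KO replicate 2. On the log2 scale the polymerase Polg had a fold change of -0.32 (SE 0.30), the helicase Twnk had -0.28 (SE 0.16) and the single-stranded DNA binding protein Ssbp1 had 0.07 (SE 0.22). The nuclease Mgme1, with the smallest p of the list, had -0.46 (SE 0.21). Leaving out Wfs1-KO replicate 2 gave -0.05 for Polg, -0.31 for Twnk, -0.15 for Ssbp1 and -0.35 for Mgme1. For the 36 genes of RNA processing the median was -0.07, and -0.11 without that retina, and 1 of the 36 was lower at an unadjusted p under 0.05, beside 0.566% of all tested genes: Mto1, which modifies tRNAs (-0.49, SE 0.19). Without that retina 3 were lower at that level, beside 2.39% of all tested genes: Mto1, Slirp and Cdk5rap1, the last named after its values were seen. The mRNA-stabilising partners Lrpprc and Slirp had -0.16 (SE 0.16) and 0.08 (SE 0.40), and Slirp had -0.52 (SE 0.21) without Wfs1-KO replicate 2. The RNases and partners that cut tRNAs out of the precursor, Elac2 (-0.07), Trmt10c (-0.08) and Prorp (-0.0039, listed as 1110008L16Rik), and the poly(A) polymerase Mtpap (0.05) and the exonuclease Pnpt1 (-0.17), lay near 0.

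The 23 tested aminoacyl-tRNA synthetases and their partners had a median of -0.06 and -0.08, with Gatc at the smallest p (-0.40, SE 0.21). The 13 translation factors had -0.02 and -0.08, with Mrpl58 at the smallest p (0.47, SE 0.42). In the fit without Wfs1-KO replicate 2, Gatc was at -0.24 and Mrpl58 at -0.22. The 14 regulators of mitochondrial biogenesis had -0.09 and 0.07. Among them, the coactivator Ppargc1a had a value of -0.10 (SE 0.22), Nrf1 had 0.02 (SE 0.16) and Gabpa had -0.20 (SE 0.30). Ppargc1b had the smallest p (0.44, SE 0.27). With Wfs1-KO replicate 2 left out, Ppargc1a was at -0.04, Nrf1 at 0.08, Gabpa at 0.06 and Ppargc1b at 0.18.

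The nuclear partners of the mitochondrially encoded subunits were the lists that moved most with Wfs1-KO replicate 2. For the 37 nuclear subunits of complex I the median was 0.49 on all 6 retinas and -0.18 without it, a fit in which 37 of 37 had a value below 0, beside 9603 of all 19178 genes. In that fit 5 of the 37 were lower at an unadjusted p under 0.05 (Ndufa1, Ndufa3, Ndufa12, Ndufb1-ps and Ndufb6, named after their values were seen), beside 2.39% of all tested genes. For complex III it was 0.42 and -0.24 (9 tested), for complex IV 0.58 and -0.20 (15 tested of 16) and for complex V 0.52 and -0.24 (18 tested). For complex II, which has no mitochondrially encoded subunit, it was 0.01 and -0.11 (4 tested). The 77 tested genes of the mitochondrial ribosome had 0.26 and -0.19. Without Wfs1-KO replicate 2, values were also below 0 for 9 of 9 tested genes of complex III and 13 of 15 of complex IV. The same held for 17 of 18 of complex V, 4 of 4 of complex II and 73 of 77 of the ribosome. At an unadjusted p under 0.05 in that edgeR fit, 0 genes of complex III, 1 of IV and 5 of V were lower. For complex II it was 1 and for the ribosome 7, beside 2.39% of all tested genes. Beside complex III, mt-Cytb had a log2 fold change of -0.41 on all 6 retinas and -0.44 without Wfs1-KO replicate 2. Beside complex IV, mt-Co1 had -0.39 and -0.16, while mt-Co2 and mt-Co3, inside the copied stretch, had 0.71 and 0.37 on all 6 retinas. Beside complex V, mt-Atp6, also inside it, had 0.62 and 0.22. All 7 mRNAs with high counts, which include the tested mRNAs of complex I, lay below 0 in both fits. The values above 0 belonged to mt-Co2, mt-Co3 and mt-Atp6, whose levels are uncertain. No difference between the mitochondrially encoded subunits and their nuclear partners was tested. On all 6 retinas the smallest p of complex I belonged to Ndufa2 (1.02, SE 0.63) and of complex III to Uqcr10 (0.75, SE 0.54). In complex IV it belonged to Cox7a1 (1.58, SE 0.68) and in complex V to Atp5o (0.78, SE 0.55). In complex II it belonged to Sdhb (0.22, SE 0.26) and in the ribosome to Mrpl33 (1.15, SE 0.62). Each of these genes had its highest level in Wfs1-KO replicate 2. Leaving that retina out gave -0.20 for Ndufa2, -0.24 for Uqcr10, -0.24 for Atp5o, -0.10 for Sdhb and -0.0076 for Mrpl33. Cox7a1 was at 0.30 in that fit.

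**Figure D5:**
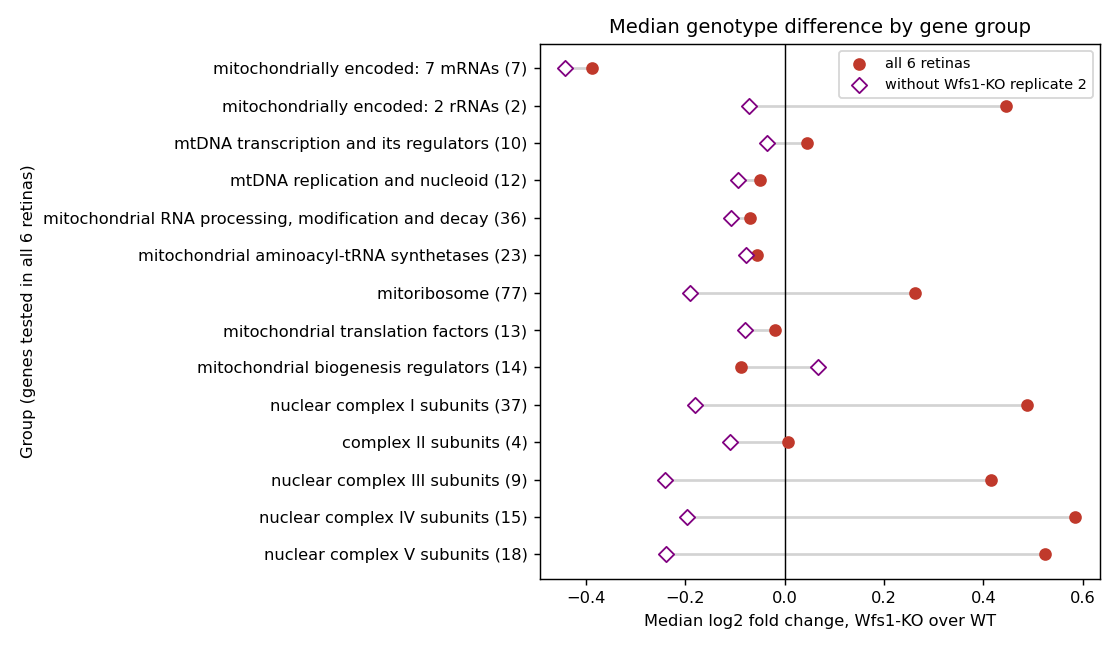
Median log2 fold change, Wfs1-KO over WT (x axis), of the mitochondrially encoded mRNAs and rRNAs and of 12 lists of nuclear genes (y axis, genes tested in brackets), with all 6 retinas (filled circles) and without Wfs1-KO replicate 2 (open diamonds). The median of the 7 mitochondrial mRNAs is -0.39 and -0.44, while complexes I, III, IV and V and the mitochondrial ribosome change from above to below 0.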

How the data were processed

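RNA of 6 retinas, 3 per genotype, was sequenced. Per the labels and the study's methods, the authors trimmed reads (Trimmomatic 0.39), mapped them to mm10 (STAR 2.5.3a) and deposited raw counts on exons per gene (featureCounts 1.6.4); the methods text gives other versions. Of 8 library columns, 2 named no listed sample and were not used. C columns were read as WT and W columns as Wfs1-KO. Library totals were 17916885 to 101334381 counts. Counts were fitted with edgeR 4.0.16 (R 4.3.3, TMM, filterByExpr, quasi-likelihood test), with Benjamini-Hochberg adjustment over all tested genes, a threshold of 0.05, and genotype as the only term. DESeq2 1.42.0 and limma 3.58.1 were alternatives, and scripts were tested on simulated data. Levels are CPM after TMM scaling, also per kilobase of the deposited exon length. Class shares have exact 95% intervals, for counting error only. Copies were found with BLAST 2.17.0 and exact 50-base windows on GENCODE M21 transcripts, where all 37 symbols matched. Members and lists were chosen with earlier results of these data known. All 37 members are accounted for; of nuclear lists, fixed regulators and the smallest p of each list are named. Same-numbered retinas are different mice. The p-values set the genotype difference against the spread between these retinas, estimated with information shared across genes.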

Additional observations from a re-analysis of the deposited data

How the results depend on the processing

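None of the members was called under any of 16 alternatives, and the lowest adjusted p was 0.0698 (mt-Nd6, DESeq2 without Wfs1-KO replicate 2). Over all genes, 2 were called, against 49 with DESeq2, 95 with DESeq2 without Wfs1-KO replicate 2, 9 with no filter, 0 to 24 when leaving out 1 retina, and 24 with mitochondrial genes left out of the scaling together with that retina, an alternative chosen after seeing the data. With the replicate number as a block 1 gene was called; the numbers do not pair the retinas (correlations of deviations -0.23, -0.11 and 0.08), and no member was called. Directions turned without Wfs1-KO replicate 2 for mt-Rnr1 (-0.18 with edgeR, DESeq2 and the added scaling), mt-Co3 (-0.15 with all 3) and mt-Te (-0.26 with edgeR and the added scaling, -0.28 with DESeq2), and for mt-Tc with DESeq2 (0.021). Leaving out 1 retina gave ranges of -0.43 to 0.22 for mt-Tc, -0.44 to 0.042 for mt-Nd4, -0.67 to 0.17 for mt-Nd6, -0.18 to 0.69 for mt-Rnr1, -0.15 to 0.58 for mt-Co3 and -0.26 to 1.43 for mt-Te. The cause was not tested. The median of the 10 tested mRNAs (-0.19) ran from -0.29 to -0.054 when leaving out 1 retina, the latter without Wfs1-KO replicate 1. The tRNAs other than mt-Tp and the mRNAs inside the copied stretch had few counts, and small differences in them were not detectable here.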
